A study of Arabidopsis thaliana with 12 samples.

Results

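Indole-3-pyruvic acid (IPyA) was added to Arabidopsis thaliana plants already exposed to L-AOPP, an aminooxy inhibitor, and transcript signals were compared with those of plants given L-AOPP alone. The comparison used 6 of the 12 arrays of the series, the 3 labelled L-AOPP+IPyA and the 3 labelled L-AOPP, matched by the replicate number in their titles. The other arrays, 3 of Mock and 3 of L-AOPP+IAA, entered the same fit and served as points of reference. All plants were whole plants of the Col-0 ecotype, 7 d old, kept in shaken liquid medium at 21 °C in continuous light. DMSO, the solvent, was given to Mock plants. L-AOPP was given at 50 µM for 3 h in the other 3 groups, and indole-3-acetic acid (IAA) at 1 µM, or IPyA, was added 1 h after the inhibitor, so the exposure to either lasted 2 h. The labels give the IPyA dose in 2 ways, 100 µM in the sample descriptions and the series design and 0.1 µM in the treatment protocol, which differ 1000-fold, so no dose is attached to the values below. The design asks which transcripts differ in inhibited plants once a precursor of auxin is supplied. No group received IPyA without L-AOPP, so an effect of IPyA on plants with no inhibitor was not measured. The labels do not say whether replicates were separate cultures, and the p-values measure only the spread among these samples, part or all of which may be technical.

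Plants make most of their IAA, the main natural auxin, from tryptophan along a short route: aminotransferases of the TAA1 family form IPyA, and flavin monooxygenases of the YUC family turn IPyA into IAA. Aminooxy compounds such as L-AOPP act on enzymes that use pyridoxal phosphate, the aminotransferases among them, and L-AOPP is known as well to block phenylalanine ammonia-lyase, the entry enzyme of phenylpropanoid synthesis. IAA induces early response genes within minutes to hours, including the Aux/IAA repressors and the GH3 enzymes that conjugate IAA to amino acids, and the transcripts of these genes are a common readout of auxin supply.

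The deposited values are linear MAS5 signals, 1 per probe set and array. Array medians lay between 169 and 185, and the 66 pairwise Spearman correlations between 0.969 and 0.988. The 3'/5' ratio of the GAPDH control rises when RNA is degraded. It was 1.44, 1.51 and 1.12 in L-AOPP+IPyA replicates 1, 2 and 3 and 1.34, 1.27 and 1.15 in L-AOPP. The actin and ubiquitin ratios were higher, 7.77 to 14.5 and 2.02 to 2.70 over the 12 arrays. RCA, the Rubisco activase gene of green tissue, had signals of 14809 to 19032 over the 12 arrays, and EXPA7 and EXPA18, expansin genes of root hairs, had 259 to 1929 and 272 to 1208, so shoot and root transcripts were both present as the whole-plant label implies. Those are the only 3 of the 16 listed shoot and root markers with a named probe set.

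Few probe sets were called after addition of IPyA. Of 15922 probe sets tested, 28 were called at an adjusted p under 0.05 in limma's paired fit (0.176%), 25 of them higher with IPyA and 3 lower. At an unadjusted p under 0.05 there were 1564 (9.82%). The log2 changes of the 28 ran from -1.22 to 1.24, and 7 of the 28 reached 2-fold. In 23 of the 28 the 3 IPyA signals and the 3 L-AOPP signals did not overlap, a separation seen in 6.01% of all tested probe sets, and all 28 had 1 sign in the 3 pairs, as 32.2% of all tested probe sets did. Exactly 14 of the called probe sets are paired with 1 gene, all higher with IPyA: 8 nuclear loci with no role in the annotation used except MSRB9, 5 genes of the plastid genome and 1 of the mitochondrial genome. Another 2 are paired with several genes and 12 are not listed there, so they stay unnamed. The calls rest on the pairing and on how the variance is modelled: without the replicate number in the fit 0 were called (367 at an unadjusted p under 0.05, smallest adjusted p 0.737), and without the intensity trend of the variance prior 0 were called (1507 at an unadjusted p under 0.05, smallest adjusted p 0.0851). Leaving out replicate 2 also gave 0 calls, leaving out replicate 3 gave 3 and leaving out replicate 1 gave 75. Every one of the 28 kept its sign in each of the alternatives in which it was tested. That says little, because several alternatives leave the estimates unchanged. With 1 sign in all 3 pairs, leaving out a replicate number could not turn the sign either.

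**Figure D1:**
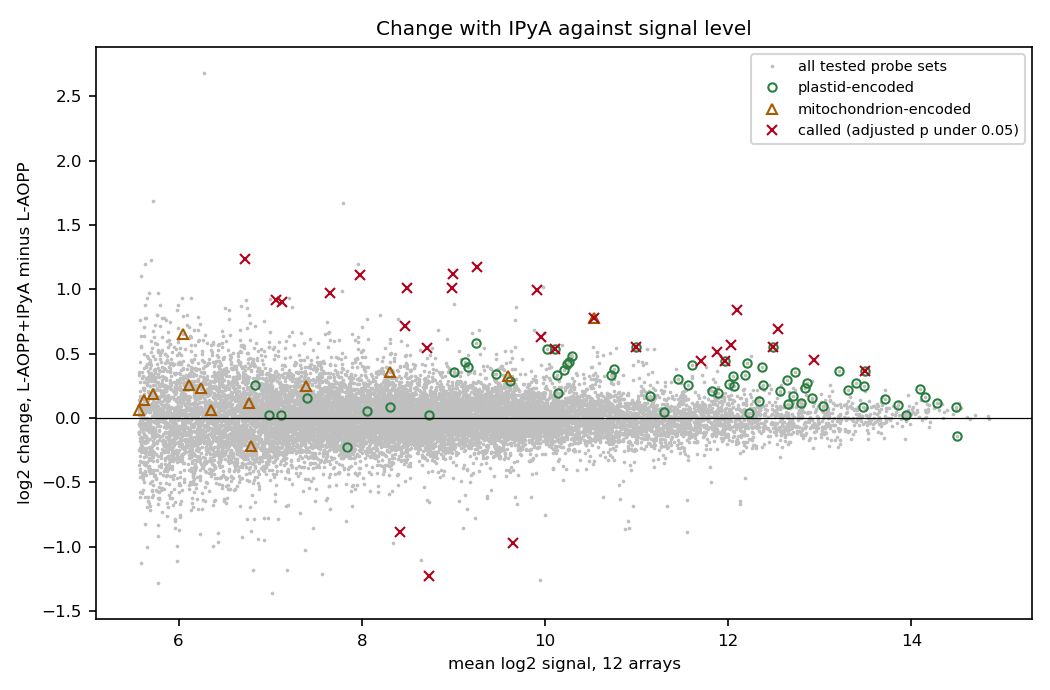
Each point is 1 of the 15922 tested probe sets, with its mean log2 signal over 12 arrays on the horizontal axis and its log2 change, L-AOPP+IPyA minus L-AOPP, on the vertical axis; circles are plastid-encoded and triangles mitochondrion-encoded probe sets. The 28 called probe sets (crosses) include 25 above 0 and 3 below, and 65 of the 67 plastid-encoded probe sets lie above 0.

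AT5G47980 had the largest rise among the called probe sets paired with 1 gene. Its signals were 165, 148 and 144 in L-AOPP replicates 1, 2 and 3 and 333, 381 and 283 with IPyA. All IPyA signals were above all L-AOPP signals and close to those of Mock plants, 337, 379.5 and 323. The log2 change was 1.11 ± 0.14 (SE), 2.17-fold, with an adjusted p of 0.00659 in limma. With IAA the signals were 228, 322 and 177, more scattered than with IPyA, and the difference of IPyA from IAA was 0.49 (95% interval 0.18 to 0.79), which missed the threshold. In the TAIR10.1 gene table the next 3 protein-coding genes are CYP705A5 (thalian-diol desaturase), CYP708A2 (thalianol hydroxylase) and THAS1 (thalianol synthase), enzymes of the triterpene thalianol, none of which has a named probe set here. Of the named neighbours that were tested, AT5G47950 differed by 0.18 (-0.04 to 0.40), AT5G47970 by -0.00 and AT5G47940 by 0.06. AT5G47930 differed by 0.22 and AT5G48020 by -0.00, and 0 of these 5 were called. AT5G47950 was higher with IPyA than with IAA by 0.51 on the log2 scale (limma adjusted p = 0.023). AT5G47980 and AT5G47950 are the 2 tested genes of 8 listed for the thalianol and marneral clusters. The list's median was 0.65, and 1 of the 2 was called, beside 0.157% of all tested probe sets called higher. Unlisted probe sets could not be placed among the neighbours. They include 248728_at and the probe set numbered just before it, whose numbers closely follow that of the AT5G47980 probe set. Both were called higher with IPyA, by 1.24 (limma adjusted p = 0.0263) and 1.12 (limma adjusted p = 0.00659). These probe sets were picked because they were called, and other unlisted probe sets numbered nearby are not given. Whether they measure genes of this locus was not tested.

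MSRB9 (AT4G21850) had the smallest adjusted p of all tested probe sets. It encodes a methionine sulfoxide reductase, an enzyme that reduces oxidised methionine in proteins. Its signals were 2198, 2943 and 2998 with L-AOPP and 3991, 5595 and 4992 with IPyA, against 4176, 6792 and 4905 in Mock and 4468, 6592 and 5823 with IAA. Every array with IPyA exceeded every array with L-AOPP, and replicate 1 was the lowest in each of the 4 groups. The log2 change was 0.84 ± 0.08, 1.79-fold, with a limma adjusted p of 0.00139. The call was kept in 15 of 18 alternatives and lost without the pairing, without the variance trend (adjusted p = 0.0851) and without replicate 2 (adjusted p = 0.073). Of the 4 methionine sulfoxide reductase genes tested, MSRB9 alone was called. The intervals of the other 3, MSRB3 at -0.24 (-0.50 to 0.03), MSRB5 at -0.38 (-0.75 to -0.01) and MSRB6 at -0.14 (-0.33 to 0.05), lay wholly below that of MSRB9. The list's median was -0.19, beside -0.00 over all tested probe sets.

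AT2G44370 and AT5G19110, which the gene table leaves without a described function, rose to a similar extent. AT2G44370 gave 81.2, 97 and 121 with L-AOPP and 173, 185 and 226 with IPyA, a log2 change of 0.97 ± 0.13 (limma adjusted p = 0.00944). Its IPyA signals lay between those of L-AOPP and those of Mock, 248, 291 and 253, with no overlap on either side. With IAA it gave 271, 326 and 389, above every IPyA array, and the difference of IPyA from IAA, -0.75 (-1.03 to -0.47), was called (limma adjusted p = 0.00737). AT5G19110 gave 172, 205 and 255 with L-AOPP and 304, 499 and 484 with IPyA, so replicate 1 was low in both groups while the groups stayed apart. Its log2 change was 1.01 ± 0.15 (limma adjusted p = 0.025), and the value with IAA minus L-AOPP was 0.96 ± 0.15. None of the neighbours of AT5G19110 within 5 protein-coding genes on either side that were tested was called.

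AT3G45680 and AT3G45700 lie close together in the gene table, separated by 1 protein-coding gene, AT3G45690, which has a probe set too dim to be tested. AT3G45680 gave 129, 109 and 72.8 with L-AOPP and 309, 165 and 135 with IPyA, with the highest value in replicate 1, and its log2 change was 0.92 ± 0.16 (limma adjusted p = 0.0449). AT3G45700 gave 227, 349.5 and 258 and 329, 503 and 544. Its groups overlapped, since replicate 1 with IPyA fell below replicate 2 with L-AOPP, although each pair rose. The log2 change was 0.71 ± 0.12 (limma adjusted p = 0.0467). Both were higher with IPyA than with IAA, AT3G45680 by 0.73 (limma adjusted p = 0.0316) and AT3G45700 by 0.59 (limma adjusted p = 0.0267), and with IAA they differed from L-AOPP by 0.18 and 0.12, neither called. The nearby AT3G45710 (0.21) and AT3G45730 (0.48) were not called with IPyA. NAXT1 (NPF2.7), annotated as a nitrate excretion transporter, lies 4 protein-coding genes before AT3G45680 and has no named probe set. Both calls depended on the settings: AT3G45680 was called in 3 of 17 alternatives and AT3G45700 in 4 of 18.

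AT1G72140 and AT3G46280 complete the nuclear loci. AT1G72140 rose from 108, 94.6 and 69.1 to 179, 207 and 124 in the 3 pairs, by 0.90 ± 0.15 on the log2 scale (limma adjusted p = 0.0417). The lowest IPyA array was above the highest L-AOPP array. Its annotated neighbour NPF5.13, of a family of nitrate and peptide transporters, was measured at -0.02. NPF5.14, of the same family and next to NPF5.13, has no named probe set. AT3G46280 rose from 781, 785 and 715 to 1256, 1152 and 1117, by 0.63 ± 0.09 (limma adjusted p = 0.0132). With IAA AT3G46280 gave 892, 858 and 993, below every IPyA array, but the difference, 0.36 (0.17 to 0.55), missed the threshold (limma adjusted p = 0.0583).

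**Figure D2:**
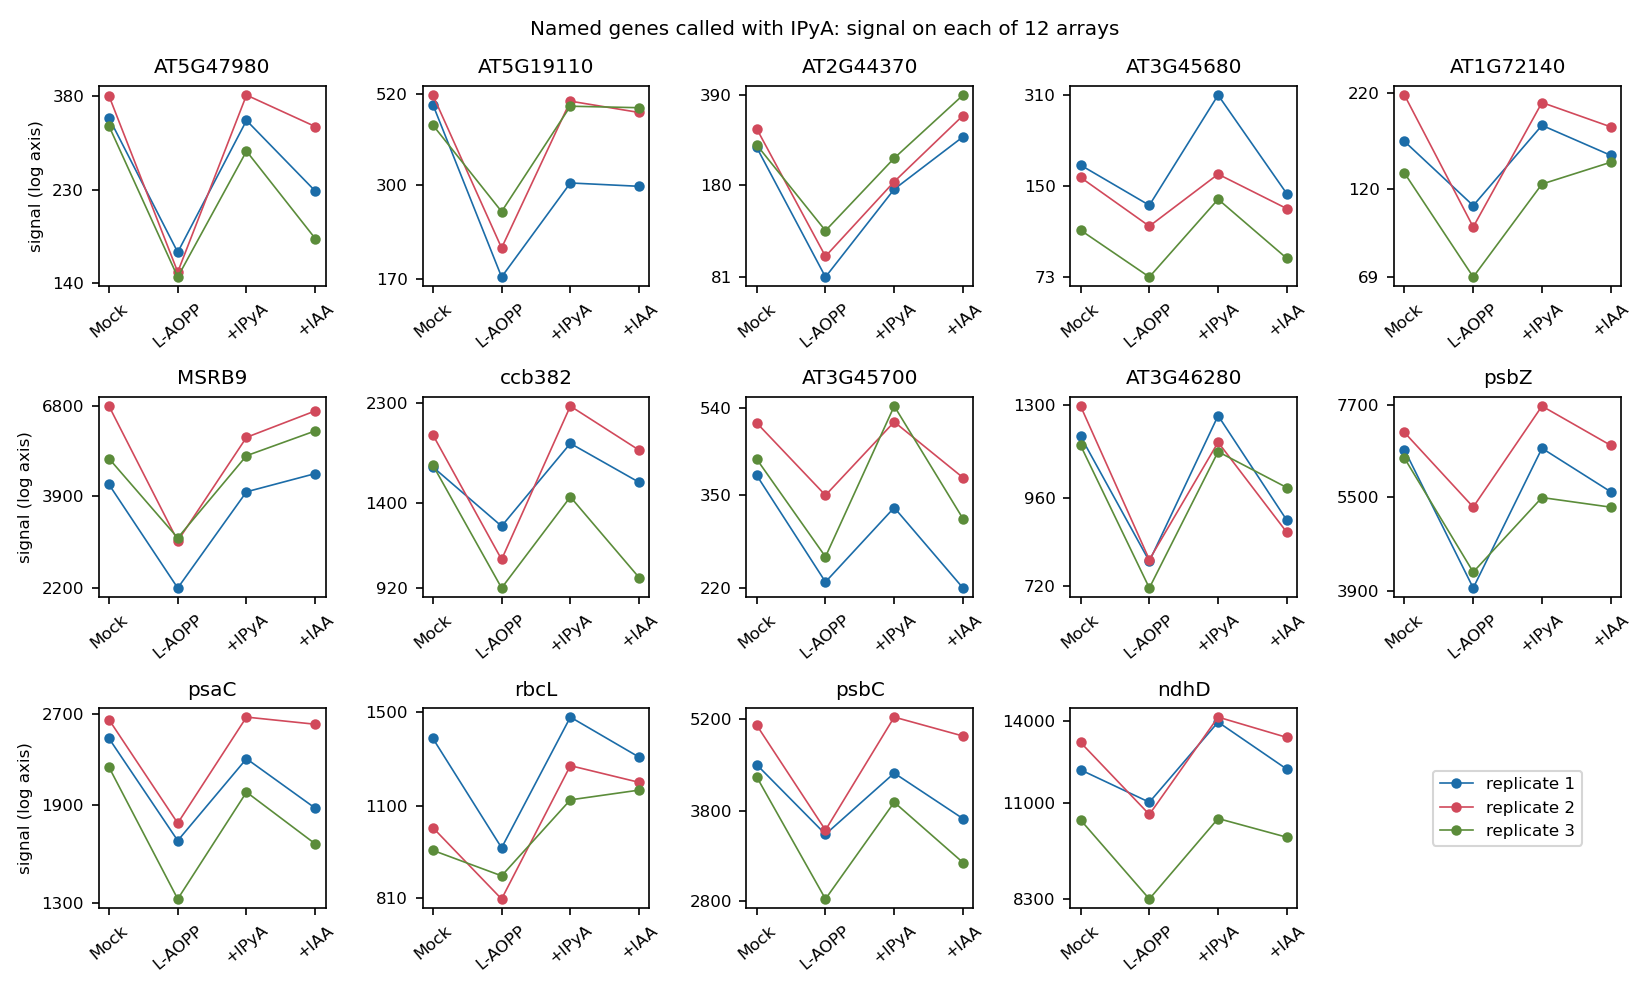
Signal (log axis) of the 14 called probe sets paired with 1 gene on each of the 12 arrays, with a line joining arrays of 1 replicate number across Mock, L-AOPP, L-AOPP+IPyA and L-AOPP+IAA. In every panel all 3 lines rise from L-AOPP to IPyA, and the lowest MSRB9 signal with IPyA, 3991, exceeds the highest with L-AOPP, 2998.

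Among the called probe sets without a listed gene, 9 were higher and 3 lower with IPyA. The largest rises were those of 248728_at, from 40.6, 88.5 and 54.2 to 113, 169.6 and 132 (1.24 ± 0.19), and 259149_at, from 256, 374 and 413 to 739, 862 and 716 (1.17 ± 0.14). The largest falls were those of 247914_at, from 1037, 610.1 and 917 to 672, 194 and 349 (-1.22 ± 0.21), and 256352_at, from 1753, 1083 and 1404 to 1317, 447 and 597 (-0.98 ± 0.16). In both, replicate 1 was the highest of its group, by a wider margin with IPyA than with L-AOPP, so the groups overlapped although every pair fell. The remaining fall, of 267238_at, is named because so few were lower, a choice made after its values were seen: its signals were 402, 679 and 611 with L-AOPP and 234, 373 and 302 with IPyA, without overlap, a log2 change of -0.89 ± 0.11 (limma adjusted p = 0.00659).

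Plastid-encoded transcripts carry the photosystem, Rubisco and ribosome subunits made inside the chloroplast. Among the calls with an annotated role they formed the largest group, while unlisted calls and loci with no role could not be grouped. Of 69 named plastid-encoded probe sets 67 were tested. Higher calls numbered 5 and lower calls 0, against 0.157% of all tested probe sets called higher and 0.0188% called lower, and 34 of the 67 had an unadjusted p under 0.05, all higher. Estimates above 0 numbered 65, or 97.0%, beside 49.8% of all tested probe sets, and the median log2 change was 0.26 beside -0.00. Genes of the organelle share transcription units and their probe sets are not independent of each other.

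The called plastid genes belong to several complexes. psbZ, a small subunit of photosystem II, rose from 3944, 5298 and 4179 to 6564, 7656 and 5485, by 0.55 ± 0.07 on the log2 scale (limma adjusted p = 0.0103), and the groups did not overlap. psaC, which binds the terminal iron-sulphur clusters of photosystem I, rose from 1654, 1769 and 1319 to 2269.7, 2666 and 1995, by 0.55 ± 0.08 (limma adjusted p = 0.0227). rbcL, the large subunit of Rubisco, rose from 957, 808 and 873 to 1474, 1255 and 1121, by 0.54 ± 0.09 (limma adjusted p = 0.0324), and psbC, a chlorophyll-binding antenna protein of photosystem II, by 0.44 ± 0.08 (limma adjusted p = 0.0467). The psaC, rbcL and psbC groups also stayed apart. For ndhD, a subunit of the plastid NADH dehydrogenase-like complex, the signals were 11023, 10635 and 8302 and 13942, 14148 and 10509: replicate 3 was low in both groups, so these overlapped, but the 3 pairs rose by similar amounts and the change of 0.36 ± 0.06 was called (limma adjusted p = 0.025). With the replicate number as a random block only psbZ of the 5 was called (limma adjusted p = 0.0319), and the others had limma adjusted p-values of 0.066 (rbcL), 0.0847 (psaC), 0.167 (psbC) and 0.213 (ndhD). Over the 18 alternatives psbZ was called in 12, psaC in 8, and rbcL, psbC and ndhD in 6 each.

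By complex, the median log2 change was 0.34 for 5 photosystem I genes, 0.37 for 15 photosystem II genes, 0.21 for 6 cytochrome b6f genes, 0.15 for 6 ATP synthase genes, 0.21 for 9 NDH genes, 0.27 for 14 ribosomal protein genes and 0.15 for 4 RNA polymerase genes. The highest estimate, that of petG of the cytochrome b6f complex, was not called: its signals were 342, 498 and 452 with L-AOPP and 351, 903 and 821 with IPyA, so replicate 1 hardly differed while replicates 2 and 3 were far higher with IPyA (0.59, 0.22 to 0.95). psbN (-0.22, -0.66 to 0.22) and psbM (-0.14, -0.32 to 0.04) were the only plastid-encoded estimates below 0. RCA, a nuclear gene of chloroplast function, had 0.03 (-0.10 to 0.17).

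The plastid-encoded shift was not even across the pairs. The median of IPyA minus L-AOPP over the 67 probe sets was -0.03 in pair 1, 0.44 in pair 2 and 0.37 in pair 3, with 29, 64 and 63 of the 67 above 0. The median was 0.43 without replicate 1 and 0.16 without replicate 2. Their summed signal was 357877, 353018 and 323793 in L-AOPP, 360596, 442207 and 382999 with IPyA, and 379091, 427757 and 383616 in Mock, so replicates 2 and 3 were higher with IPyA and replicate 1 was nearly level. The GAPDH 3'/5' ratio was higher with IPyA by the most in pair 2 and lower in pair 3. The actin ratio was 14.1, 11.4 and 13.1 with IPyA and 7.77, 13.4 and 13.0 with L-AOPP, and the ubiquitin ratio 2.70, 2.22 and 2.02 against 2.33, 2.07 and 2.16, so these differed by the most in pair 1. The part of these ratios in the result was not tested. In whole plants, fewer cells of a type and less RNA per cell cannot be told apart, which holds for every value here. With IAA minus L-AOPP, a comparison that shares the L-AOPP arrays, the median of the same probe sets was 0.16. Of the 67, 6 were called higher, beside 2.55% of all tested probe sets called higher. For L-AOPP minus Mock the median was -0.38, and 9 of the 67 were called lower, beside 0.421% of all tested probe sets.

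Of the mitochondrial genes 13 of 23 named probe sets were tested. ccb382, also named ccmFN1, which serves cytochrome c maturation, was called, 1 of 13 beside 0.157% of all tested probe sets called higher. It rose from 1249.9, 1060.1 and 921 to 1882, 2263 and 1445 without overlap of the groups, by 0.78 ± 0.13 (limma adjusted p = 0.0417). It was called in 7 of 18 alternatives, and not with the random block (limma adjusted p = 0.0943). The estimates of 12 of the 13 lay above 0, beside 49.8% of all tested probe sets, from -0.21 to 0.78 with a median of 0.23, which was 0.36 without replicate 1, 0.12 without replicate 2 and 0.36 under the stricter filter on dim probe sets. ccb206, of the same process, had no overlap either, with 46.2, 69.9 and 47.1 and 76.4, 80.5 and 96.4, but was not called (0.65, 0.16 to 1.15). The 3'/5' ratios given above apply here too.

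**Figure D3:**
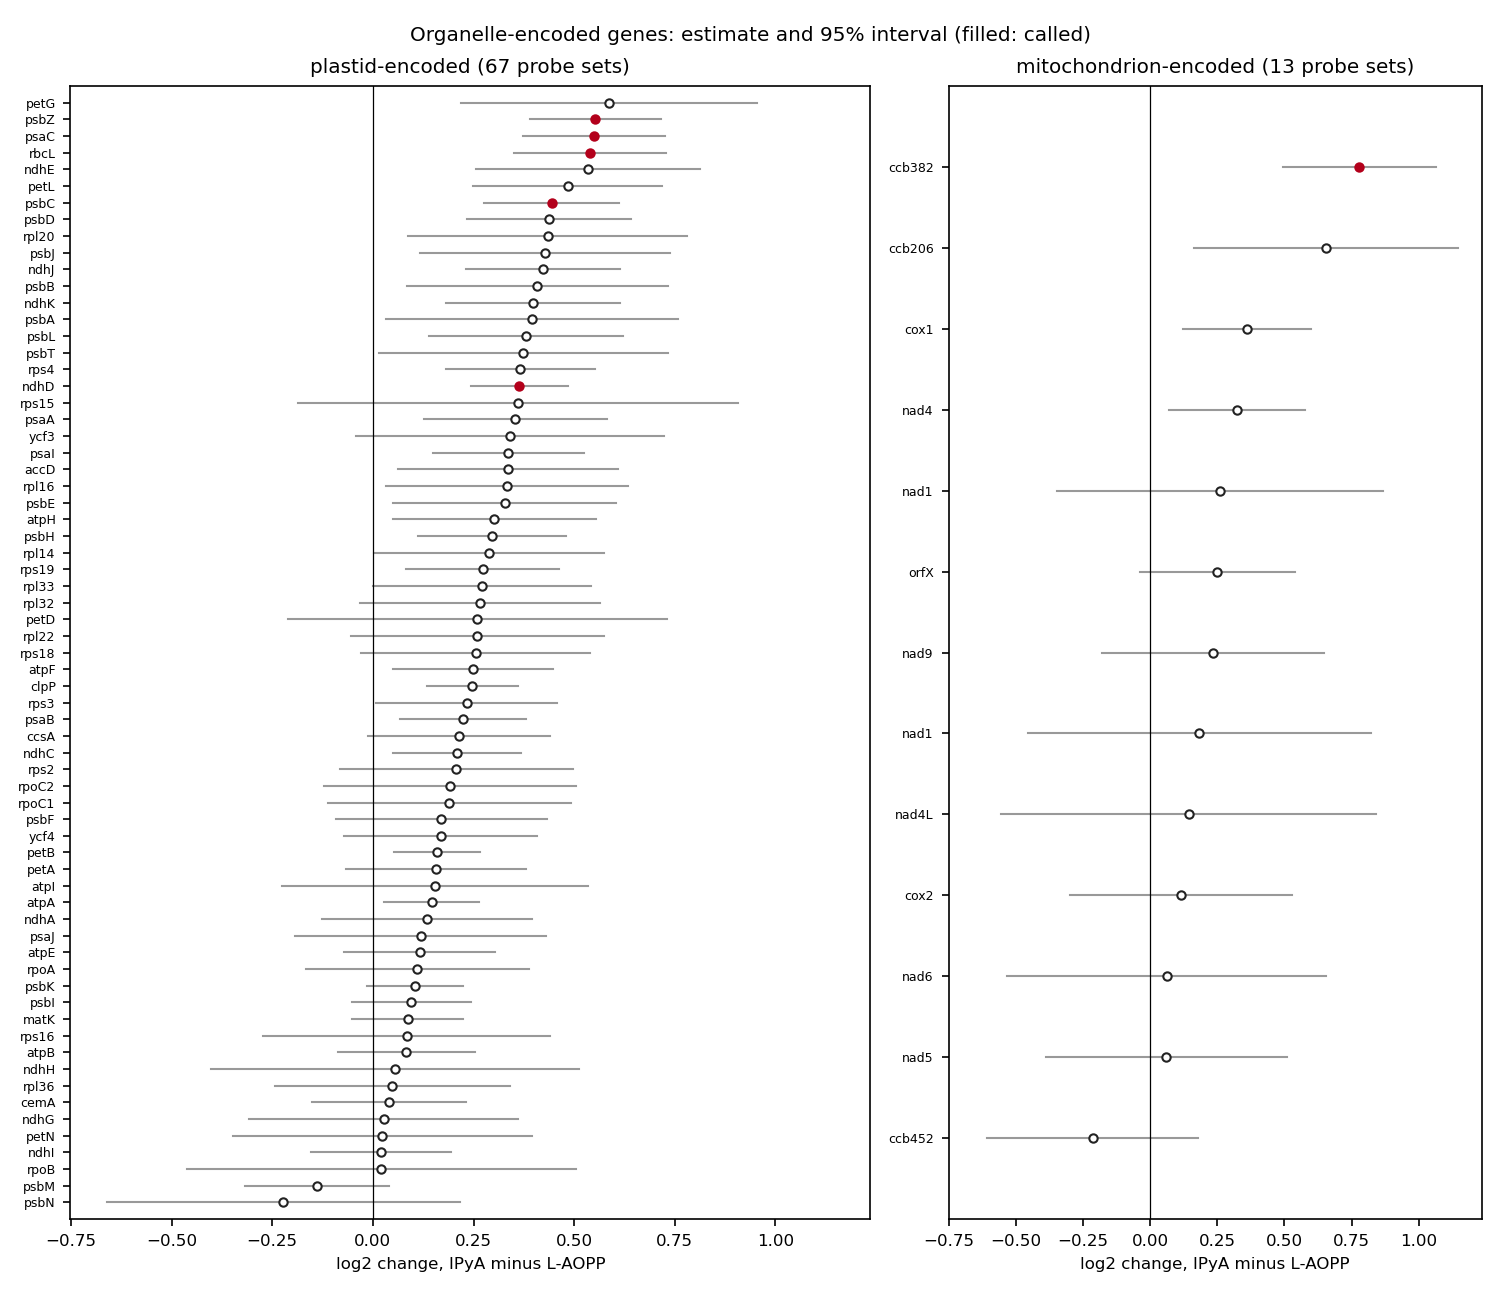
Log2 change, L-AOPP+IPyA minus L-AOPP, of the 67 plastid-encoded (left) and 13 mitochondrion-encoded (right) probe sets, as points with 95% intervals; filled points are called. Nearly all points lie above 0, from psbN at -0.22 to petG at 0.59 on the left and from ccb452 at -0.21 to ccb382 at 0.78 on the right.

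Against Mock, plants given L-AOPP and IPyA showed 0 called probe sets of 15922 (0%), with 882 at an unadjusted p under 0.05 (5.54%). The count was 0 in all 7 alternatives run for this comparison. Of the 67 plastid-encoded probe sets, 51 had estimates below Mock and 16 above, with a median of -0.09. At an unadjusted p under 0.05 there were 11 of the 67 (16.4%). The 4 plastid RNA polymerase genes all lay below Mock, with a median of -0.39. For the 28 probe sets called against L-AOPP, the log2 difference between IPyA and Mock lay between -0.45 and 0.40. MSRB9 differed from Mock by -0.11 (-0.28 to 0.06), AT5G47980 by -0.07 (-0.37 to 0.23) and psbZ by -0.02 (-0.18 to 0.14). AT2G44370, at -0.45 (-0.73 to -0.17), and AT3G45680, at 0.40 (0.06 to 0.74), were the extremes, and their intervals leave out 0 although neither was called. For L-AOPP minus Mock the same genes had -0.95 (MSRB9), -1.18 (AT5G47980), -0.57 (psbZ), -1.42 (AT2G44370) and -0.52 (AT3G45680). Both comparisons rest on the same 3 L-AOPP arrays, so a deviation of those arrays would enter the 2 with opposite signs. WAG2, a protein kinase gene of auxin transport, was one of the genes whose IPyA value stood nearer to L-AOPP than to Mock: 249, 194 and 139 in Mock, 325, 416 and 309 with L-AOPP and 402, 263 and 324 with IPyA, a difference from Mock of 0.78 (0.40 to 1.17), not called.

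The early auxin response genes listed here were not called with IPyA. GH3.3, an IAA-conjugating enzyme gene, gave 1261, 708 and 609 with L-AOPP, 1415, 519 and 431 with IPyA and 10387, 10187 and 8769 with IAA. The IPyA and L-AOPP arrays overlapped and every IAA array was far above both. HAT2, a homeodomain factor gene induced by auxin, gave 455, 458 and 429, 488, 455 and 403 and 2426, 2261 and 2029 in the same order of groups. Its estimate for IPyA minus L-AOPP, 0.00, had a 95% interval of -0.20 to 0.20.

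The auxin response genes that follow had wider intervals than HAT2. For IPyA minus L-AOPP they were -0.73 to 0.21 for GH3.3, -0.38 to 0.19 for WES1 (GH3.5), -0.25 to 0.35 for LBD16, a factor of lateral root initiation, and -0.60 to 1.07 for GH3.1. The Aux/IAA genes IAA29 and IAA30 were dim, with signals of 52.3, 24.7 and 21.1 and 34.2, 54.4 and 35.4 with IPyA, and their intervals were -1.18 to 0.17 and -0.77 to 0.31. For L-AOPP minus Mock, estimates were 0.69 for GH3.3, 0.39 for WES1, 0.35 for GH3.1 and 0.22 for HAT2. They were 0.18 for LBD16, 0.24 for IAA30 and 0.19 for IAA29. All were above 0 and none was called, while WAG2, at 0.88, was called higher (limma adjusted p = 0.0493). A fall with the inhibitor was thus not seen in these genes. Over lists, 0 of 5 GH3 genes (median -0.03), 0 of 4 Aux/IAA genes (median -0.30) and 0 of 4 other early auxin genes (median -0.05) were called with IPyA, beside 0.176% of all tested probe sets. The 4 Aux/IAA estimates were all below 0, and that of IAA30 lay above 0 without replicate 1 (0.073). Too few members of these families have a named probe set, 7 of 29 Aux/IAA genes and 0 of 13 SAUR genes, to describe them as families.

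The difference between IPyA and IAA was tested directly, with the caution that the IPyA dose is uncertain and that by either statement it differs from that of IAA. Called probe sets numbered 309 (1.94%), 64 higher with IPyA (0.402%) and 245 lower (1.54%). GH3.3 was lower with IPyA than with IAA by -3.84 on the log2 scale (limma adjusted p = 9.94e-07), HAT2 by -2.32 (limma adjusted p = 4e-08), and GH3.1 by -3.12 (limma adjusted p = 0.000626). IAA30, IAA29, WES1, LBD16 and WAG2 also differed, at -2.99, -2.96, -1.74, -1.71 and -0.81. Of the xyloglucan hydrolase genes of the cell wall, XTH18 (-0.74) and XTH19 (-0.47) were called lower with IPyA than with IAA, while their values against L-AOPP were 0.26 and 0.19, not called. Genes called with IPyA were in part called with IAA as well, in a comparison that shares the L-AOPP arrays. For IAA minus L-AOPP, MSRB9 stood at 1.05 (limma adjusted p = 9.35e-06), AT2G44370 at 1.72 (limma adjusted p = 9.35e-06) and AT5G19110 at 0.96 (limma adjusted p = 0.00358). AT5G47980 stood at 0.63 (limma adjusted p = 0.0245) and psbZ at 0.39 (limma adjusted p = 0.0111). The count of calls between IPyA and IAA was 60 without the replicate number in the fit and 118 without replicate 2 or without replicate 3.

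**Figure D4:**
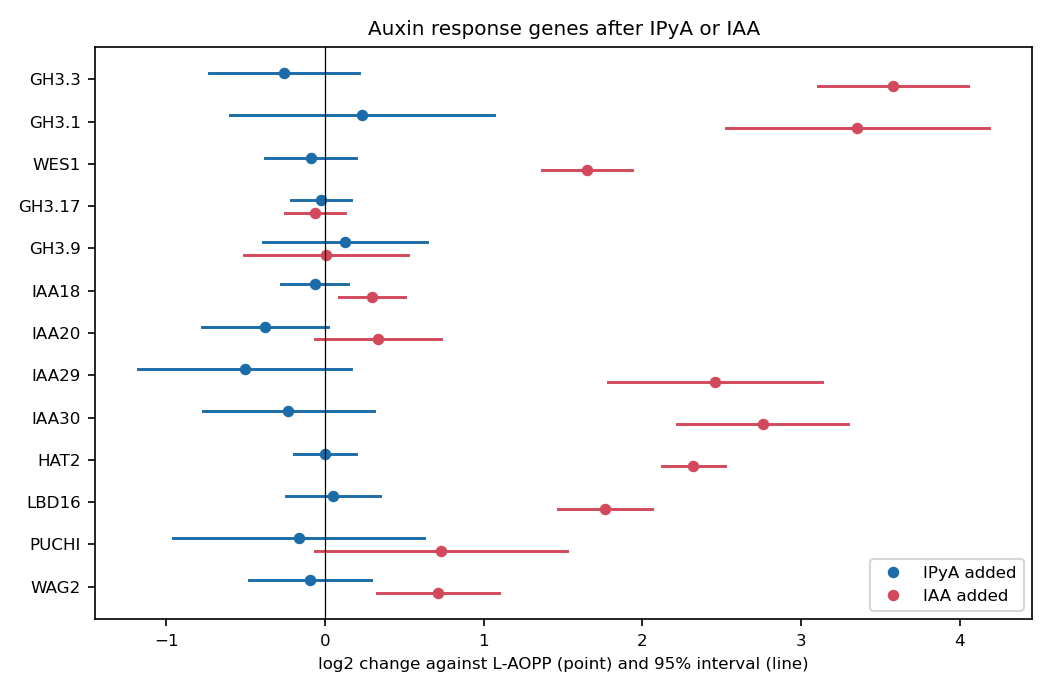
Log2 change against L-AOPP, with 95% intervals as lines, of 13 auxin response genes after IPyA (blue) or IAA (red), which were given at different doses. GH3.3 stands at -0.26 with IPyA and 3.58 with IAA, and HAT2 at 0.00 and 2.32; the intervals of both overlap for GH3.17, GH3.9, IAA18, IAA20 and PUCHI.

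Genes that make or remove auxin were not called. YUC2, a monooxygenase gene of the step that uses IPyA, gave 175.3, 159 and 103.5 with L-AOPP and 186, 174 and 151 with IPyA, overlapping groups with an estimate of 0.25 (-0.09 to 0.60). It is the only gene of 20 listed for auxin synthesis that was tested. Of the genes that inactivate IAA, UGT74D1, a glucosyltransferase gene, was at -0.01 (-0.19 to 0.17), and AT1G14130 and AT1G14120 were at -0.09 (-0.36 to 0.17) and -0.01 (-0.27 to 0.26). GH3.17 and GH3.9, of the conjugating family, were at -0.03 and 0.13.

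Other lists of secondary metabolism and stress held no call, which with 0.176% of all tested probe sets called says little about lists of so few tested genes. HCT, an acyltransferase gene of lignin synthesis and the only gene tested of the phenylpropanoid list, came nearest: it gave 3177, 3092 and 2496 with L-AOPP and 3899, 3951 and 3628 with IPyA, without overlap, a log2 change of 0.40 ± 0.07 with a limma adjusted p of 0.0584. It passed the threshold without replicate 1 (adjusted p = 0.0386). The 3 detoxification genes tested, GSTU25 (0.55, 0.17 to 0.92), UGT73B4 (0.50, -0.09 to 1.10) and UGT73B5 (0.34, -0.05 to 0.73), had a median of 0.50, and the 4 flavonoid genes a median of 0.22. Wider families had medians near 0: 0.02 for 11 cytochrome P450 genes, 0.05 for 10 glutathione transferases, 0.04 for 29 UDP-glycosyltransferases, 0.02 for 5 WRKY factors and 0.01 for 13 expansins, each with 0 calls.

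The root hair expansin genes EXPA7 and EXPA18 had estimates of -0.62 (-1.11 to -0.14) and -0.60 (-0.98 to -0.21) and were not called. EXPA7 gave 1589.6, 582 and 775 with L-AOPP and 1229.9, 337 and 474 with IPyA, and EXPA18 1145, 549 and 765 and 965, 333 and 432. Replicate 1 was the highest in both groups and each of the 3 pairs was lower with IPyA. Without replicate 1 both passed the threshold, at -0.75 (limma adjusted p = 0.033) and -0.77 (limma adjusted p = 0.0224), a setting in which 75 probe sets were called in place of 28. For L-AOPP minus Mock, EXPA7 and EXPA18 stood at 0.72 and 0.67, and for IPyA minus Mock at 0.10 and 0.07. For IAA minus L-AOPP they stood at -0.42 and -0.69. None of these differences was called. The part of root hair transcripts in the other results was not tested.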

How the data were processed

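Total RNA of whole plants was made into biotin-labelled cRNA and hybridised, 1 sample an array, per the labels' protocols. Per the submitters' processing notes the authors used MAS5, and what they deposited is 1 linear intensity for each probe set and array. The scaling step is not given in the sources used here, but the mean intensity of every array, after 2% of probe sets were left out at each end, was 500.0. Of 22810 probe sets 64 controls were left out. In the platform annotation 13513 of the rest are paired with 1 gene, 503 with several and 8730 are unlisted, and 13436 matched a locus of the TAIR10.1 gene table, from which neighbours were read.

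Log2 intensities, with values under 0.05 raised to 0.05, were fitted with limma 3.58.1 in R 4.3.3 on all 12 arrays, with terms for group and replicate number and a variance prior that follows intensity (eBayes). Dim probe sets (6824, mean log2 up to the 30th percentile, 47.4 as a signal) were left out, so 15922 were tested, two-sided. A call is a Benjamini-Hochberg adjusted p under 0.05 over these. The script was tested on data simulated with the same replicate effects and independent noise. That simulation takes the pairing as given, so it cannot test the pairing. The number of arrays limits the precision.

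The titles do not say what a replicate number marks. Deviations from the group means correlated at 0.501 to 0.685 between arrays of the same number (18 pairs of arrays). In the 3 pairs compared here they correlated at 0.544 to 0.652, so the numbers were taken to pair the arrays. Between different numbers in other groups the range was -0.582 to 0.123 (36 pairs). Deviations within a group sum to 0, so these 36 values are tied to the others and are not separate evidence.

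Every called probe set with 1 gene is named, as are 7 auxin response genes and the tested genes of auxin synthesis and inactivation, the thalianol cluster and methionine sulfoxide reductase. Other uncalled genes were named after their values were seen. The comparison, the 20 gene lists (229 genes, 43 tested probe sets) and the 17 gene families were chosen with earlier results of these data known. Lists got counts and medians and no test. No list of jasmonate and salicylate, ethylene, SAUR, or auxin transport and perception genes had a tested member, and of the 17 families 10 had none. Plastid-encoded genes were found by chromosome and mitochondrial ones by symbol, since the tables lack the planned locus prefixes. Lists not described in the report held 1 tryptophan synthesis gene (0.08), 1 glucosinolate gene (0.24) and 2 reference genes (median 0.02), with 0 calls. The 5 cell wall genes had a median of 0.10. Families were looked up by words in gene symbols and synonyms, so members without those words were missed. The words for nitrate and peptide transporters found 1 tested gene (-0.19) and missed NPF5.13 (-0.02), so these values do not describe that family. Whether any called locus belongs to it could not be read from the annotation used. Those for defensins found 1 tested gene (-0.16). Called loci with no role in the annotation used could not be placed in a family, although AT5G47980 is in the list of thalianol and marneral clusters. Sequences and coordinates were not used here.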

Additional observations from a re-analysis of the deposited data

How the results depend on the processing

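With the replicate number as a block, IPyA against L-AOPP gave 28 calls, 25 higher and 3 lower. There were 0, 0 and 0 with no replicate block and likewise with no intensity trend, 14, 13 and 1 with the number as a random block, 54, 34 and 20 in a fit of only the 6 arrays, and 11, 10 and 1 with no filter. The lower calls were 5 with median centring and 5 with an offset of 16. Leaving out 1 array or 1 numbered set moved the total between 0 and 80, the higher calls between 0 and 43 and the lower calls between 0 and 37: the total was 80, 7 and 23 without the inhibitor-only array of set 1, 2 or 3, and 2, 11 and 5 without the corresponding IPyA array. The cause was not tested. The 309 calls of IPyA against IAA were 60 with no replicate block and 118 to 222 with a numbered set left out. The plastid-encoded median stayed between 0.16 and 0.43 and the mitochondrion-encoded between 0.12 and 0.36. Of 976 combinations of a gene and an alternative, 751 kept direction and call, 180 lost the call, 13 gained it and 32 turned sign. Those that turned belong to uncalled genes near 0. With quantile normalization HAT2 stood at -0.00017 and UGT74D1 at 0.0088, and with median centring HAT2 at -0.0056. With arrays left out, HAT2 ranged from -0.057 to 0.045, LBD16 from -0.081 to 0.24, WES1 from -0.19 to 0.042, IAA30 from -0.51 to 0.073, UGT74D1 from -0.080 to 0.12, AT1G14130 from -0.22 to 0.013, AT1G14120 from -0.066 to 0.082, GH3.17 from -0.086 to 0.017, GH3.9 from -0.17 to 0.35, PUCHI from -0.48 to 0.074, WAG2 from -0.30 to 0.19 and ccb452 from -0.40 to 0.016. No value was corrected for MAS5 detection, and dim probe sets such as IAA29 and IAA30 have wide intervals.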
